A study of Mus musculus with 4 samples.

Results

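The genes examined here are those that build fatty acids and cholesterol. A list of 38 lipid synthesis genes was chosen by function, though with earlier results of these data known. A gene was kept where at least 1 of its probes was well above background on at least 1 of 4 arrays. This left 37 genes out of 20571 that passed the same filter, and all 37 were well above background on all 4 arrays. The gene that did not pass was Elovl3, a fatty acid elongase, whose only probe gave signals of 6.21 in Nrf2-/- tumor, 4.96 in Nrf2+/+ tumor, 4.34 in the Nrf2-/- non-tumor pool and 4.72 in the Nrf2+/+ non-tumor pool, below background in each. For the comparisons the genes were divided into a fatty acid arm of 17 measured genes, a sterol arm of 17 and 3 regulators.

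The study set lung tumors beside non-tumor lung in female ICR mice with an intact Nrf2 gene (Nrf2+/+) or without a working one (Nrf2-/-). Nrf2, encoded by Nfe2l2, is a transcription factor of antioxidant and detoxification genes. All mice, non-tumor groups included, were 6 months old and had been injected with 1 g/kg urethane, a carcinogen that produces lung adenomas, 16 weeks before, so no group stands for untreated lung. Groups were Nrf2-/- tumor, Nrf2+/+ tumor, Nrf2-/- non-tumor lung and Nrf2+/+ non-tumor lung, each a pool of RNA from 8 mice on 1 array, with tumors of 1.0 to 1.5 mm in diameter. The labels give neither the deleted part of Nrf2 nor whether each mouse gave both tissues. Pooling leaves no spread between animals and no replicates, so a difference between a pair of arrays has no p-value.

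Levels are given as scaled signal, which is a probe's processed signal divided by the 75th percentile of its array. Differences are on the log2 scale, where 1 is 2-fold, and the scanner software's own error of such a difference was between 0.20 and 0.24 for these genes. That error covers the reading of the spots and not the variation between mice. Between 54.2% and 63.5% of spots were well above background, and 0 were saturated. The array of Nrf2+/+ non-tumor lung lay alone on slide 1 and the other 3 arrays shared slide 2, so slide and group cannot be told apart in any comparison with that array. Nfe2l2 had signals of 6.94 in Nrf2-/- tumor and 7478 in Nrf2+/+ tumor, and of 5.13 in the Nrf2-/- non-tumor pool and 7913 in the Nrf2+/+ non-tumor pool. The probe was not well above background in either Nrf2-/- pool, which matches the genotype labels.

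Fatty acids are made in the cytosol: ATP citrate lyase turns citrate into acetyl-CoA, acetyl-CoA carboxylase turns that into malonyl-CoA, and fatty acid synthase joins the units into palmitate, which elongases and desaturases then modify. Cholesterol starts from the same acetyl-CoA, passes through mevalonate and the isoprenoids to squalene, and is finished by a chain of sterol enzymes. The transcription factors SREBP-1 and SREBP-2 drive both arms, SREBP-1 mostly the fatty acid genes and SREBP-2 mostly the sterol genes. In the lung, alveolar type 2 cells make fatty acids for the phospholipids of surfactant. Fasn, Scd1 and Fdps, which stand for the gene group, were well above background on every array.

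Most of the fatty acid arm stood higher in tumors than in the non-tumor tissue of that genotype, while the medians of the sterol arm lay nearer to 0. In Nrf2-/- mice, 12 of 17 fatty acid genes were above 0 and the median difference was 0.53. In Nrf2+/+ mice, 11 of 17 were above 0 and the median was 0.55. Over all genes measured on both arrays, 51.2% were above 0 in Nrf2-/- mice with a median of 0.01, and 53.2% in Nrf2+/+ mice with a median of 0.05. At least 2-fold higher were 5 fatty acid genes in Nrf2-/- tumors, against 5.39% of all genes, and 5 in Nrf2+/+ tumors, against 7.84%. None of the 17 was at least 2-fold lower in either genotype, where 5.82% of all genes were so in Nrf2-/- tumors and 11.2% in Nrf2+/+ tumors. In Nrf2-/- tumors 10 fatty acid genes were higher by over 2 software errors, against 15.0% of all genes, and 2 were lower by that much, against 15.4%. In Nrf2+/+ tumors 9 were higher by over 2 software errors, against 22.4%, and 3 were lower, against 21.7%. Fewer cells of a type and less RNA per cell cannot be told apart in such tissue samples.

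**Figure D1:**
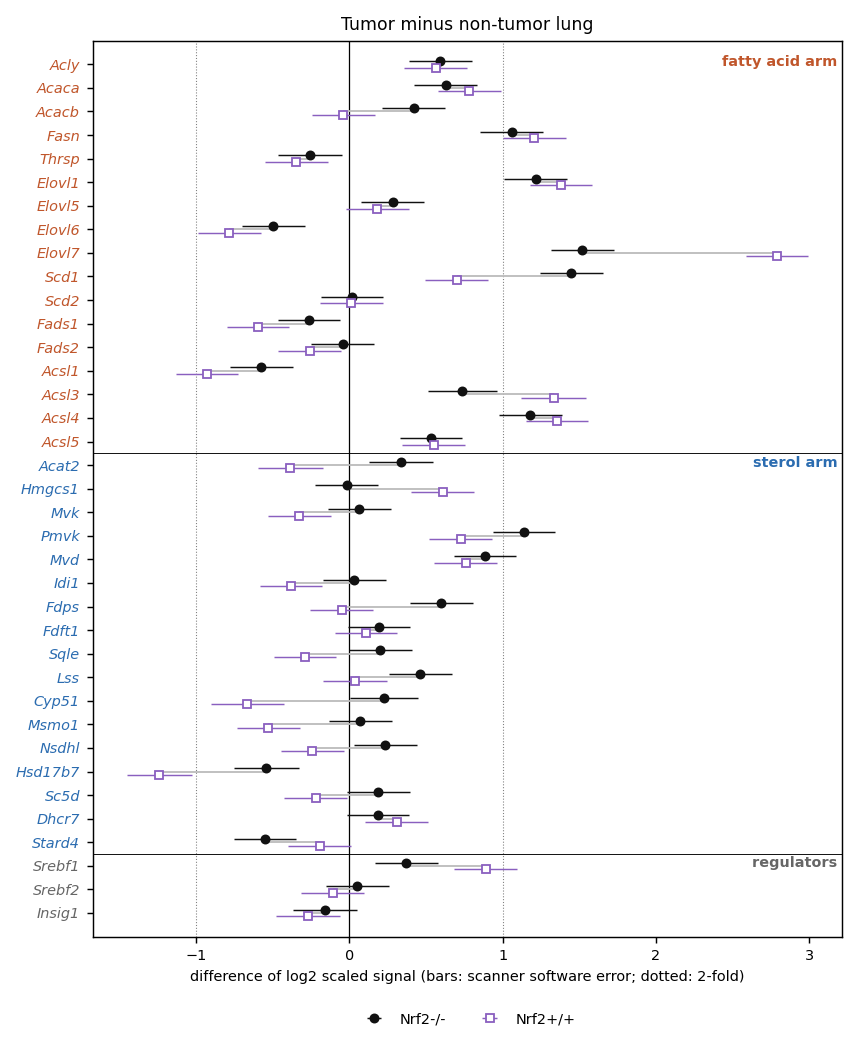
The tumor minus non-tumor difference (log2) of each lipid synthesis gene is plotted for Nrf2-/- and Nrf2+/+ mice, with bars for the scanner software's error and lines at the 2-fold mark. Fasn, Elovl1, Elovl7 and Acsl4 lie beyond the upper mark in both genotypes, and Hsd17b7 lies beyond the lower mark in Nrf2+/+ mice alone.

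In the core of the fatty acid pathway Fasn and Acly were higher in both tumors. Fasn, the synthase that makes palmitate, had a scaled signal of 204 in Nrf2-/- tumor and 183 in Nrf2+/+ tumor, against 97.8 in the Nrf2-/- non-tumor pool and 79.3 in the Nrf2+/+ non-tumor pool. Both tumor values lay above both non-tumor values. The differences were 1.06 in Nrf2-/- mice and 1.21 in Nrf2+/+ mice, and a second Fasn probe gave 1.81 and 1.64. Acly, the ATP citrate lyase, reached 2.23 in Nrf2-/- tumor and 2.91 in Nrf2+/+ tumor, against 1.48 and 1.97 in the non-tumor lung of the same genotypes. Its tumor differences of 0.59 and 0.56 were close to each other, and both Nrf2-/- samples were below their Nrf2+/+ counterparts. Acaca, the acetyl-CoA carboxylase of the cytosol, differed by 0.63 in Nrf2-/- mice and 0.78 in Nrf2+/+ mice, but its second probe gave 0.11 in Nrf2-/- mice and -0.23 in Nrf2+/+ mice, so its direction there depends on the probe. Acacb, the carboxylase isoform at the mitochondrial membrane, differed by 0.42 in Nrf2-/- mice and -0.04 in Nrf2+/+ mice. Thrsp, a lipogenic cofactor also called Spot14, was lower by less than 2 software errors, at -0.26 and -0.35.

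The elongases had no common direction. Elovl1, which extends saturated very long chains, had 207 in Nrf2-/- tumor and 163 in Nrf2+/+ tumor, against 89.3 in the Nrf2-/- non-tumor pool and 62.7 in the Nrf2+/+ non-tumor pool. Its differences were 1.22 and 1.38, with both tumors above both non-tumor samples. Elovl7, an elongase of long saturated chains, had 2.93 in Nrf2-/- tumor and 7.0 in Nrf2+/+ tumor, against 1.02 and 1.01 in non-tumor lung. The Nrf2+/+ tumor thus stood alone at the top and the non-tumor pools were alike. Differences were 1.52 in Nrf2-/- mice and 2.79 in Nrf2+/+ mice for Elovl7, and 1.03 and 1.85 with its second probe. Elovl6, which turns palmitate into stearate, ran the other way, at 0.951 in Nrf2-/- tumor and 0.640 in Nrf2+/+ tumor, against 1.34 and 1.10 in the matching non-tumor lung. Both tumors lay below both non-tumor pools, with differences of -0.50 and -0.78. Elovl5, an elongase of polyunsaturated chains, differed by only 0.28 and 0.18.

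Among the desaturases, 1 gene stood apart. Scd1, which puts the double bond into stearate and palmitate, had 124 in Nrf2-/- tumor and 66.4 in Nrf2+/+ tumor, against 45.4 in the Nrf2-/- non-tumor pool and 40.9 in the Nrf2+/+ non-tumor pool. The Nrf2-/- tumor was the highest sample, and the non-tumor pools were close. Differences were 1.45 in Nrf2-/- mice and 0.70 in Nrf2+/+ mice. Scd2, a second stearoyl-CoA desaturase, had nearly the same level on all arrays, at 46.1, 43.2, 45.6 and 42.9 in Nrf2-/- tumor, Nrf2+/+ tumor and the Nrf2-/- and Nrf2+/+ non-tumor pools. Its differences of 0.02 and 0.01 were within the software's error. Fads1 and Fads2, the delta-5 and delta-6 desaturases of polyunsaturated fatty acids, were at -0.27 and -0.04 in Nrf2-/- mice and at -0.60 and -0.26 in Nrf2+/+ mice.

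The acyl-CoA synthetases, which activate free fatty acids, also differed among themselves. Acsl4, which prefers arachidonic acid, had 31.5 in Nrf2-/- tumor and 27.4 in Nrf2+/+ tumor, against 13.9 in the Nrf2-/- non-tumor pool and 10.7 in the Nrf2+/+ non-tumor pool. Its differences were 1.18 and 1.35, or 1.68 and 1.88 with a second probe, and both tumors lay above both non-tumor pools. Acsl3, a synthetase linked to lipid droplets, had 0.247 in Nrf2-/- tumor and 0.497 in Nrf2+/+ tumor, against 0.148 and 0.197 in non-tumor lung. The Nrf2+/+ tumor was the highest by a wide margin, and the differences were 0.74 in Nrf2-/- mice and 1.33 in Nrf2+/+ mice. Acsl1 had 3.93 in Nrf2-/- tumor and 3.35 in Nrf2+/+ tumor, against 5.85 in the Nrf2-/- non-tumor pool and 6.38 in the Nrf2+/+ non-tumor pool. This synthetase was thus lower in both tumors, at -0.58 and -0.93, the reverse of Acsl4. Acsl5 differed by 0.53 and 0.55.

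At least 2-fold higher in both genotypes were 4 genes (Fasn, Elovl1, Elovl7 and Acsl4), all of the fatty acid arm, where 3.48% of all genes were so, and 0 members were at least 2-fold lower in both, against 4.97%. Some of these values lay near the mark. Fasn and Acsl4 in Nrf2-/- tumors were under 2-fold with quantile normalization, spike-in scaling and a different background correction, and Elovl1 in Nrf2-/- tumors with the first 2 of these settings. Fasn in Nrf2+/+ tumors was also under 2-fold with quantile normalization and with the other background correction, at 0.87 as its lowest. Elovl7 passed the mark under all 7 settings in both genotypes, with its lowest value of 1.24 in Nrf2-/- mice and 2.32 in Nrf2+/+ mice.

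Alveolar type 2 markers were also higher in the tumors. Of 10 listed markers 9 were measured, and all 9 were above 0 in both genotypes, with medians of 0.89 in Nrf2-/- mice and 1.11 in Nrf2+/+ mice. Their summed scaled signal was 1295 in Nrf2-/- tumor and 1226 in Nrf2+/+ tumor, against 800 in the Nrf2-/- non-tumor pool and 680 in the Nrf2+/+ non-tumor pool. Adipocyte markers, from another cell type that makes fatty acids, had medians of -0.26 in Nrf2-/- mice, with 2 of 8 above 0, and -1.39 in Nrf2+/+ mice, with 0 of 8 above 0. Their sum over 8 measured markers of 10 was 6.25 in Nrf2-/- tumor and 3.80 in Nrf2+/+ tumor, against 10.1 and 12.0 in non-tumor lung. Adipoq and Retn, which define the cell type, were below background in both tumors, and Cfd was so in Nrf2+/+ tumor. The adipocyte medians thus include bounds, and the tumor sums include background signal. Median differences in Nrf2-/- and Nrf2+/+ mice were -1.10 and -1.62 for endothelial markers, -2.82 and -1.89 for ciliated cell markers and -1.24 and -0.53 for club cell markers. They were 0.26 and 1.36 for proliferation markers. Of 4 ciliated markers, 3 were not well above background in Nrf2-/- tumor and 1 in Nrf2+/+ tumor, so those medians include bounds. The part of these cell types in the fatty acid result was not tested.

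In both tumor comparisons the sterol median was nearer to the median of all genes than the fatty acid median was. In Nrf2-/- mice 14 of 17 sterol genes were above 0, against 51.2% of all genes, with a median of 0.19. In Nrf2+/+ mice 6 of 17 were above 0, against 53.2%, with a median of -0.22. The share above 0 was thus not near that of all genes in Nrf2-/- mice. Past 2 software errors were 4 higher and 2 lower in Nrf2-/- tumors, where 15.0% and 15.4% of all genes were so. In Nrf2+/+ tumors 3 were higher and 3 lower, against 22.4% and 21.7%, so these counts were near the background. Pmvk alone was at least 2-fold higher, in Nrf2-/- tumors, and Hsd17b7 alone was at least 2-fold lower, in Nrf2+/+ tumors. With arrays scaled to their medians, which shifted all genes by 0.29 in the Nrf2+/+ comparison, the sterol median there was 0.07, still 0.27 below the median of all genes. With spike-in scaling, which shifted all genes by -0.28 in the Nrf2-/- comparison, 5 of 17 sterol genes were above 0 there, while 14 of 17 were still above the median of all genes, as in the reported setting.

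The sterol genes with the largest mean tumor difference, Pmvk, Mvd and Hmgcs1, and the one with the lowest, Hsd17b7, are shown by the 250 bases before their start site, from RefSeq on GRCm38.p6. They span the range of the arm, and capitals mark 3 motifs searched on both strands: the sterol element TCACNCCAC bound by SREBP, the CCAAT box (ATTGG on the opposite strand) and the antioxidant element TGACNNNGC bound by Nrf2. No 2 marked motifs overlap in these windows.
Pmvk, chr3:89454291-89454540, plus strand: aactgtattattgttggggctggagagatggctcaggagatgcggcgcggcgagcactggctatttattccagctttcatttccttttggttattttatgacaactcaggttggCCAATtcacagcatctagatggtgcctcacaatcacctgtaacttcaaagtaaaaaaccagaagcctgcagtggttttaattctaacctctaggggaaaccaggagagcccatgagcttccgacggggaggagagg
Mvd, chr8:122443423-122443672, minus strand: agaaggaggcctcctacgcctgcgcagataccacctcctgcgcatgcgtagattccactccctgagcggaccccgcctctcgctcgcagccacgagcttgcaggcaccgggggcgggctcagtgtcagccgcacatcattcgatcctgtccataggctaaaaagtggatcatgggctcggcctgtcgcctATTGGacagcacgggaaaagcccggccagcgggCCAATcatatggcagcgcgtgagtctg
Hmgcs1, chr13:119690101-119690350, plus strand: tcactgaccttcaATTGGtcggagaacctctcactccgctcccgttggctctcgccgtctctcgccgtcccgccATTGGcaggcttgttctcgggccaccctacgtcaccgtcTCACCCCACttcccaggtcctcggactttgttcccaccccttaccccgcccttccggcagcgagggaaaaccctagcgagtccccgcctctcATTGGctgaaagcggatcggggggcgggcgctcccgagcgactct
Hsd17b7, chr1:169969206-169969455, minus strand: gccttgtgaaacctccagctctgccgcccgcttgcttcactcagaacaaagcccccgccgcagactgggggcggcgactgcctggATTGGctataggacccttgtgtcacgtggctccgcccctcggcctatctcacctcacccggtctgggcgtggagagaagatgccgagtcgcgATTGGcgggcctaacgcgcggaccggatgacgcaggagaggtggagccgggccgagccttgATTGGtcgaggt
CCAAT stood in all 4 windows, 1 copy in Pmvk, 2 in Mvd, 3 in Hmgcs1 and 3 in Hsd17b7, and Hmgcs1 alone held a sterol element in these letters. Entries were found for 30 measured genes, not for Fads1, Fdft1, Fdps, Scd1, Scd2, Sqle and Stard4. Of the sterol genes with an entry, 12 of 13 had a CCAAT box, as had 8 of 14 fatty acid genes, all 3 regulators and 33.8% of all 32851 promoter entries. TCACNCCAC was found in 1 of 13 sterol genes (Hmgcs1), 1 of 14 fatty acid genes (Acsl1) and 1.05% of all entries. TGACNNNGC was found in 3 of 13 sterol genes (Dhcr7, Mvk and Pmvk, in Pmvk in a second entry that is not shown), 0 of 14 fatty acid genes and 10.2% of all entries. A member was counted where any of its entries held the motif, whereas the share of all promoters is per entry, so the 2 are not fully alike. A match is a description of the letters and no evidence of binding.

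In the mevalonate steps Pmvk and Mvd were higher in both tumors. Pmvk, phosphomevalonate kinase, had 19.4 in Nrf2-/- tumor and 11.9 in Nrf2+/+ tumor, against 8.83 in the Nrf2-/- non-tumor pool and 7.20 in the Nrf2+/+ non-tumor pool. Mvd, the decarboxylase that follows it, had 4.75 in Nrf2-/- tumor and 3.47 in Nrf2+/+ tumor, against 2.58 and 2.06 in non-tumor lung. For both enzymes the samples had the same order, with the Nrf2-/- tumor at the top and the Nrf2+/+ non-tumor lung at the bottom. Pmvk differed by 1.14 in Nrf2-/- mice and 0.73 in Nrf2+/+ mice, and Mvd by 0.88 and 0.76. Hmgcs1, which makes HMG-CoA, had 6.80 in Nrf2-/- tumor and 6.47 in Nrf2+/+ tumor, against 6.88 in the Nrf2-/- non-tumor pool and 4.25 in the Nrf2+/+ non-tumor pool. Only the Nrf2+/+ non-tumor pool stood low, which was also the array on its own slide, and the differences were -0.02 and 0.61, that in Nrf2+/+ mice being 0.12 with the mean of all Hmgcs1 probes. A second Hmgcs1 probe in that mean was well above background on 1 array only. Mvk, mevalonate kinase, was at 0.06 and -0.33, and Idi1, the isomerase of the isoprenoid units, at 0.03 and -0.38. A second Idi1 probe gave -1.25 in Nrf2+/+ mice.

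Among the enzymes of squalene and beyond, most lay near 0 between Nrf2-/- tumor and its non-tumor lung. Fdft1, Sqle, Lss, Msmo1, Nsdhl, Sc5d and Dhcr7, which run from squalene synthase to the last reductase, lay between 0.07 (Msmo1) and 0.46 (Lss) there. In Nrf2+/+ mice the same 7 lay between -0.53 (Msmo1) and 0.31 (Dhcr7). Cyp51, the lanosterol demethylase, was at 0.22 in Nrf2-/- mice and -0.67 in Nrf2+/+ mice. Hsd17b7, a ketoreductase of the sterol chain, had 0.344 in Nrf2-/- tumor and 0.247 in Nrf2+/+ tumor, against 0.501 in the Nrf2-/- non-tumor pool and 0.583 in the Nrf2+/+ non-tumor pool. Both tumors were below both non-tumor pools, with differences of -0.54 and -1.24, though a second probe gave only -0.28 in each genotype. Stard4, a cholesterol carrier, was at -0.55 and -0.20.

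Between the tumors of the 2 genotypes the sterol arm had a common direction. In Nrf2-/- tumors 16 of 17 sterol genes were above their level in Nrf2+/+ tumors, with a median of 0.48, where 47.4% of all genes were above 0 with a median of -0.02. Higher by over 2 software errors were 14 of 17, against 11.2% of all genes, and 0 were lower by that much, against 8.41%. The count of 14 depends on the setting. With spike-in scaling Mvd at 0.35, Sc5d at 0.34 and Dhcr7 at 0.38, among others, were within 2 software errors. The fatty acid arm had a median of 0.19, with 13 of 17 above 0, 4 higher by over 2 software errors and 2 lower. Across 7 settings, the reported one included, of scaling, background and probes the sterol median lay between 0.38 and 0.48, with 14 to 16 of 17 genes above 0. Both tumor arrays lay on slide 2, and the comparison has no replicate check.

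**Figure D2:**
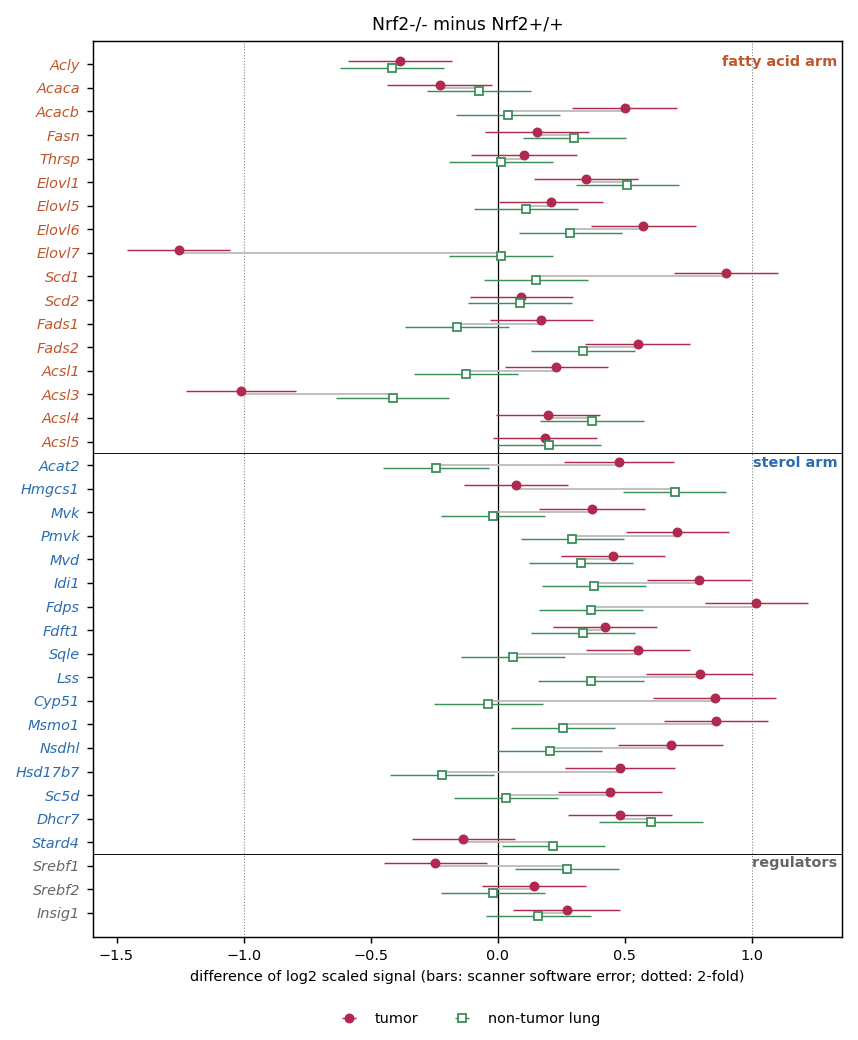
The Nrf2-/- minus Nrf2+/+ difference (log2) of each gene is plotted for tumors and for non-tumor lung, with bars for the scanner software's error and lines at the 2-fold mark. In tumors 16 of 17 sterol genes lie above 0, with Fdps at 1.02, while Elovl7 and Acsl3 lie beyond the lower mark.

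Fdps led this difference. This enzyme, which makes farnesyl diphosphate at the branch to prenylation and sterols, had 5.80 in Nrf2-/- tumor and 2.86 in Nrf2+/+ tumor, against 3.83 in the Nrf2-/- non-tumor pool and 2.96 in the Nrf2+/+ non-tumor pool. The Nrf2-/- tumor was the high sample, 1.02 above the Nrf2+/+ tumor, and Fdps was the only member at least 2-fold higher, against 3.73% of all genes. With 3 of the 7 settings it was under 2-fold, the lowest value being 0.92.

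In the reported setting all 9 enzymes past farnesyl diphosphate were higher by over 2 software errors in Nrf2-/- tumors. They lay between 0.42 (Fdft1) and 0.86 (Msmo1). With spike-in scaling Sc5d was at 0.34 and Dhcr7 at 0.38, both within 2 software errors. So was Hsd17b7, at 0.29, with the other background correction. Fdft1 has a second probe that was well above background on 1 array only, and the mean of its probes gave -1.39. Msmo1, the sterol methyl oxidase, had 16.4 in Nrf2-/- tumor and 9.06 in Nrf2+/+ tumor, against 15.6 and 13.1 in non-tumor lung. Cyp51 had 0.210 in Nrf2-/- tumor and 0.116 in Nrf2+/+ tumor, against 0.180 and 0.185 in non-tumor lung. For both genes the Nrf2+/+ tumor was the low sample and the other 3 were closer together. The tumor genotype difference was 0.85 for Cyp51, with other probes at 0.24 and 0.90 and a value of 0.54 with the other background correction. Sqle, the squalene epoxidase that is a control point of the pathway, had 4.65 in Nrf2-/- tumor and 3.17 in Nrf2+/+ tumor, against 4.04 and 3.87 in non-tumor lung. Lss, which closes the rings of lanosterol, was higher by 0.79, Nsdhl by 0.68, Hsd17b7 and Dhcr7 by 0.48 each and Sc5d by 0.44. The second Hsd17b7 probe gave 0.24, within 2 software errors, and that of Dhcr7 0.43. In the mevalonate steps Idi1 was higher by 0.79, Pmvk by 0.71, Acat2, the thiolase of the first step, by 0.48, and Mvd by 0.45, with Mvk at 0.37 and Hmgcs1 at 0.07. Stard4, at -0.14, was the member of the arm below 0.

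Over all 4 arrays, 14 of 17 sterol genes had their highest level in the Nrf2-/- tumor, where 21.1% of all genes on the 4 arrays had theirs, and 10 had their lowest in the Nrf2+/+ tumor, against 25.9%. Of 17 fatty acid genes 8 also had their highest level in the Nrf2-/- tumor, and 6 had their lowest in the Nrf2+/+ tumor. After each gene was centred on its own mean, the arm's median stood at 0.31 in Nrf2-/- tumor, -0.25 in Nrf2+/+ tumor, 0.09 in the Nrf2-/- non-tumor pool and -0.10 in the Nrf2+/+ non-tumor pool. The same medians of the fatty acid arm were 0.22, 0.09, -0.17 and -0.17, so the fatty acid medians separated tumors from non-tumor pools and the sterol medians were farthest apart between the tumors.

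**Figure D3:**
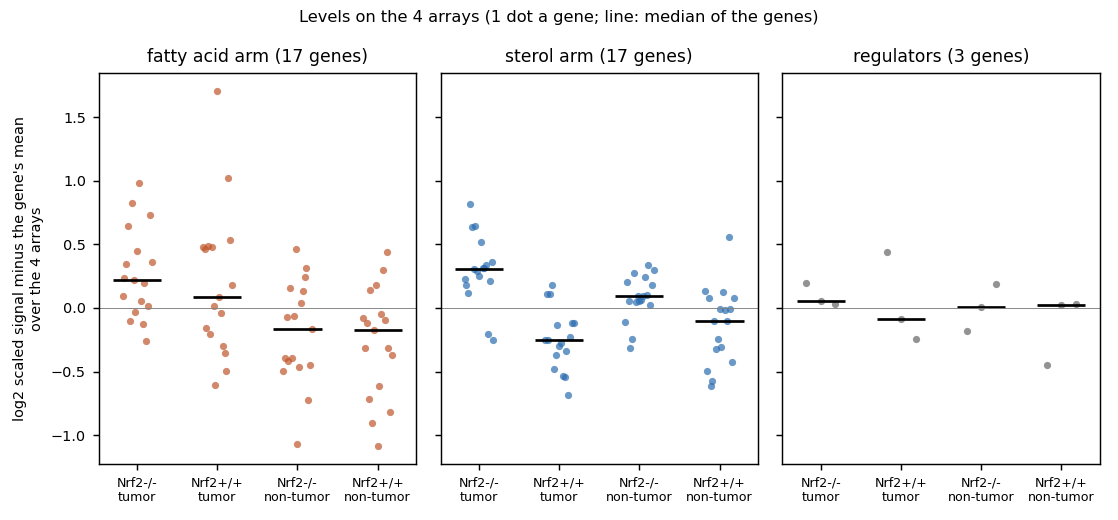
The level of each gene, centred on its own mean over the 4 arrays (log2), is plotted by array for the fatty acid arm and the sterol arm, with the median of each arm. The fatty acid medians are 0.22 and 0.09 in the tumors and -0.17 in both non-tumor pools, whereas the sterol medians are 0.31 in Nrf2-/- tumor and -0.25 in Nrf2+/+ tumor.

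In the fatty acid arm the tumors of the genotypes differed in single genes. Scd1 was higher by 0.90 in Nrf2-/- tumors, Elovl6 by 0.57, Fads2 by 0.55 and Acacb by 0.50. Elovl7 was at -1.26 and Acsl3 at -1.01, the 2 members at least 2-fold lower, against 2.58% of all genes. The second Elovl7 probe gave -0.66, and Acsl3 was under 2-fold with quantile normalization and with the other background correction. Acly was at -0.39 in tumors and Fasn at 0.15, with the second Fasn probe at 1.05.

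Markers of other cells differed between these tumors too. Macrophage markers summed to 314 in Nrf2-/- tumor and 270 in Nrf2+/+ tumor, and 7 of 7 measured were above 0. Proliferation markers summed to 15.9 in Nrf2-/- tumor and 20.5 in Nrf2+/+ tumor, and 7 of 7 were below 0. Of the 8 measured adipocyte markers 6 were detected in at least 1 of the tumors, and all 6 were above 0, the value of Cfd being a bound. The alveolar type 2 sums were as given above, with 5 of 9 markers above 0. Club cell markers summed to 131 in Nrf2-/- tumor and 254 in Nrf2+/+ tumor, with 2 of 3 below 0. Ciliated cell markers summed to 0.167 in Nrf2-/- tumor and 0.426 in Nrf2+/+ tumor, and 3 of 3 with a value were at least 2-fold lower. Of the 4 ciliated markers, 3 were not well above background in Nrf2-/- tumor and 1 in Nrf2+/+ tumor. Those sums thus include background signal, and the differences of Dnah5 and Rsph1 are bounds. The part of these cells in the sterol difference was not tested.

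In non-tumor lung the sterol arm had a median of 0.26 and 13 of 17 genes above 0, where 53.5% of all genes were above 0 with a median of 0.02. No member was at least 2-fold higher or lower, against 2.38% and 3.48% of all genes. Higher by over 2 software errors were 2 sterol genes, Hmgcs1 at 0.70 (0.14 with the mean of its probes) and Dhcr7 at 0.60 (0.28 with its second probe), against 9.1% of all genes. The second Hmgcs1 probe was well above background on 1 array only. No sterol gene was lower by that much, against 10.6%. The fatty acid arm had a median of 0.09, with Elovl1 higher by 0.51 and Acly, at -0.42, lower by over 2 software errors. This comparison crossed slides.

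The change in the tumor effect between genotypes was read as the Nrf2-/- tumor difference minus the Nrf2+/+ one. For 14 of 17 sterol genes this value was above 0, with a median of 0.41, and for 10 of 17 fatty acid genes, with a median of 0.03. Over all genes 43.8% were above 0 and the median was -0.05. It was highest for Cyp51 (0.89), Scd1 (0.75), Acat2 (0.72) and Hsd17b7 (0.70), and lowest for Elovl7 (-1.27), Hmgcs1 (-0.62) and Acsl3 (-0.60). Over the settings run it was as low as 0.47 for Cyp51 and 0.21 for Acat2, both with the other background correction, and 0.35 for Hsd17b7 with the mean of its probes, where the Hmgcs1 value was -0.26. Second probes gave -0.001 for Hsd17b7, -0.82 for Elovl7 and 1.26 for Idi1, and other Cyp51 probes gave 0.67 and 1.14. Fdft1 was at -2.17 with the mean of its probes. The second probes of Fdft1 and Hmgcs1 were well above background on 1 array only. With the probe used for each gene, only Elovl7 passed 1 in size, against 4.32% of all genes. These values rest on all 4 arrays and carry no test.

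No regulator reached 2-fold in any comparison in the reported setting. Srebf1, which encodes SREBP-1, had 41.9 in Nrf2-/- tumor and 49.6 in Nrf2+/+ tumor, against 32.4 in the Nrf2-/- non-tumor pool and 26.8 in the Nrf2+/+ non-tumor pool. Both tumors were above both non-tumor pools, by 0.37 in Nrf2-/- mice and 0.89 in Nrf2+/+ mice. Over the settings run the Nrf2+/+ value of Srebf1 lay between 0.59 and 1.18, past 2-fold with median scaling. Srebf2, which encodes SREBP-2, had 1.88 and 1.70 in the Nrf2-/- and Nrf2+/+ tumors, against 1.81 and 1.84 in non-tumor lung, and its 4 differences lay between -0.11 and 0.14. With the mean of all Srebf2 probes, however, it was at 0.35 in the Nrf2+/+ tumor comparison and 0.39 between non-tumor pools. The second Srebf2 probe in that mean was well above background on 1 array only. Insig1, which holds SREBP in the endoplasmic reticulum, was at -0.16 and -0.27 in the tumor comparisons and at 0.27 between the tumors.

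Across all genes, one test could be made, an additive fit of tissue and genotype with limma over 20571 genes. At an adjusted p of 0.05 it called 0 genes for either term (0.0%), with 6087 genes for tissue and 1898 for genotype at an unadjusted p under 0.05. At that unadjusted threshold the tissue term held 9 fatty acid genes higher and 2 lower, and 2 sterol genes higher and 1 lower, against 11.7% and 17.8% of all genes. The genotype term held 1 sterol gene higher and 1 fatty acid gene lower, against 4.75% and 4.47%. The lowest adjusted p among the members was 0.0722 for tissue and 0.509 for genotype. When the fit was restricted to 16287 genes well above background on all 4 arrays, 13 members were called for tissue and 0 for genotype, where 10.9% of genes were called higher and 12.8% lower for tissue, and 0.448% and 0.473% for genotype. In that restricted fit, Acaca, Acly, Acsl3, Acsl4, Elovl1, Elovl7, Fasn and Scd1 were called higher in tumors and Acsl1 and Elovl6 lower, while in the sterol arm Mvd and Pmvk were called higher and Hsd17b7 lower. Over 7 settings of the limma fit the adjusted p for tissue lay between 0.00692 and 0.0804 for Elovl1, between 0.00898 and 0.0938 for Fasn and between 0.036 and 0.165 for Hsd17b7. The spread in this fit is the interaction of tissue and genotype, with 1 residual degree of freedom, and not replicate error.

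Other genes of the same pathways were counted by list. Tm7sf2, a sterol reductase, was higher by 0.92 in Nrf2-/- tumors than in Nrf2+/+ tumors. Of 7 measured genes for SREBP processing and lipogenic factors, Nr1h3, the sterol sensor LXR alpha, was higher by 1.00 in Nrf2-/- tumors and by 1.10 in Nrf2-/- non-tumor lung, and the other 6 were under 2-fold in both. Of 8 measured genes for supply and chain enzymes 7 were above 0 in both tumor comparisons. Me1, the malic enzyme that supplies NADPH and a known Nrf2 target, had 5.58 in Nrf2-/- tumor and 13.0 in Nrf2+/+ tumor, against 1.04 in the Nrf2-/- non-tumor pool and 2.56 in the Nrf2+/+ non-tumor pool. It was high in both tumors, by 2.42 and 2.34, and lower without Nrf2 in both tissues, at -1.22 in tumors and -1.30 in non-tumor lung.

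**Figure D4:**
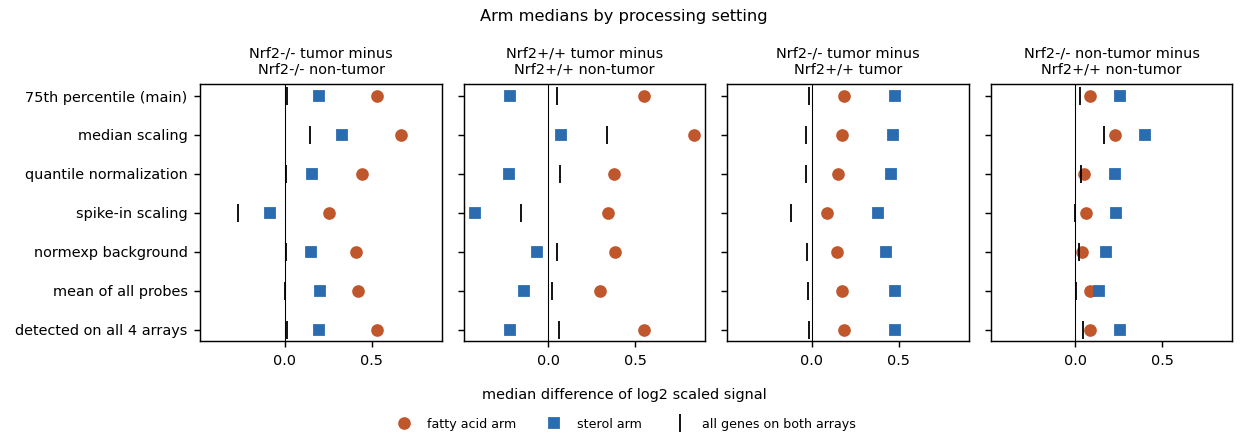
The median difference (log2) of the fatty acid arm, the sterol arm and all genes is plotted for each comparison under each setting of scaling, background and probe choice. The sterol median between Nrf2-/- and Nrf2+/+ tumors stays between 0.38 and 0.48, and that of Nrf2+/+ tumor minus non-tumor lung is -0.22 in the setting reported and 0.07 with median scaling.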

How the data were processed

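RNA pooled from 8 mice per group was hybridised to 4 one-colour Agilent arrays, 1 per group. Per the file headers, the authors read spots with Agilent Feature Extraction 10.7.3.1 and deposited intensity on a linear scale, background-subtracted and detrended. No scaling between arrays is given in the sources used here. The submitters' deposited value table held the same values, within ratios of 0.995 to 1.005.

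From the deposited intensity, values were put on a log2 scale relative to the array's own 75th percentile of non-control spots. Genes were named by RefSeq accession (26691 of 41170 probes had a symbol). Where a gene had several probes well above background on at least 1 array, the brightest on average was used. A second probe was named where it lay over 1 away on the log2 scale, and otherwise where it bears on a printed value. The additive fit used limma 3.58.1 in R 4.3.3 with Benjamini-Hochberg adjustment, and was tested on simulated data. Other steps used Python 3.11.15, numpy 2.4.6, pandas 2.3.3 and matplotlib 3.10.9. Alternatives were median scaling, quantile normalization, scaling on 7 spike-in probes, normexp background (offset 50, on the median spot signal), the mean of all probes, genes detected on all 4 arrays and the submitters' table. A fit with slide as a block had no residual degrees of freedom and gives no test. Among the members every measured gene was named; of other lists, those with the largest mean differences, at most 3 a list, and some results are not reported here. Members and lists were chosen with earlier results of these data known.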

Additional observations from a re-analysis of the deposited data

Results flagged for a closer look

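In 3 sterol genes the tumor minus non-tumor difference had opposite signs in the genotypes, each past the scanner software's error, a mark chosen after the values were seen; the difference between genotypes was not tested. Acat2 was at 0.34 in Nrf2-/- mice and -0.39 in Nrf2+/+ mice. Cyp51 was at 0.22 in Nrf2-/- mice and -0.67 in Nrf2+/+ mice. Nsdhl was at 0.24 in Nrf2-/- mice and -0.24 in Nrf2+/+ mice. Other Cyp51 probes gave 0.061 and 0.396 in Nrf2-/- mice, and -0.607 and -0.742 in Nrf2+/+ mice. Of the other Nsdhl probes, 1 gave 0.145 in Nrf2-/- mice and -0.199 in Nrf2+/+ mice, and another 0.219 and -0.110. Neither Nsdhl probe was past the error in both genotypes. With spike-in scaling the Nrf2-/- values of Cyp51 and Nsdhl were -0.055 and -0.043, and with median scaling the Nrf2+/+ value of Nsdhl was 0.051. Other values came within the software's error: Acat2 in Nrf2-/- mice was at 0.057 with spike-in scaling, and in Nrf2+/+ mice at -0.093 with median scaling and -0.058 with normexp, which also put Nsdhl there at -0.052. With normexp the Nrf2-/- values of Acat2, Cyp51 and Nsdhl were within it too, at 0.154, 0.148 and 0.192. So was Nsdhl at -0.159 in Nrf2+/+ mice with quantile normalization. With the mean of its probes Nsdhl was at 0.20 in Nrf2-/- mice and -0.184 in Nrf2+/+ mice, both within it.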

How the results depend on the processing

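Each group is 1 pooled array, so no value here has a replicate error, and genes near the 2-fold mark cross it with the setting. With median scaling, all genes shifted by 0.14 in the Nrf2-/- tumor comparison, 0.29 in the Nrf2+/+ tumor comparison and 0.14 in the non-tumor genotype comparison. In the Nrf2+/+ tumor comparison the fatty acid median was then 0.84, the sterol median 0.073 and the members at least 2-fold higher and lower 9 and 0. Spike-in scaling shifted all genes by -0.28 and -0.20 in the Nrf2-/- and Nrf2+/+ tumor comparisons. The fatty acid medians were then 0.26 and 0.35, the Nrf2-/- sterol median was -0.084, 2 members were at least 2-fold higher in Nrf2-/- tumors and 2 lower in Nrf2+/+ tumors. The share of higher genes among all genes past 2-fold was 48.1% and 41.1% in the Nrf2-/- and Nrf2+/+ tumor comparisons, 59.1% between tumors and 40.6% between non-tumor pools. It was 61.6%, 64.1%, 58.4% and 54.8% with median scaling and 26.0%, 27.6%, 50.5% and 38.4% with spike-in scaling. With quantile normalization 2 members were at least 2-fold higher in Nrf2-/- tumors and 2 lower in Nrf2+/+ tumors. Between tumors, 0 members were at least 2-fold higher with quantile normalization, spike-in scaling and normexp, and 1 was lower with quantile normalization and normexp. In Nrf2+/+ tumors 0 were at least 2-fold lower with normexp and with the mean of all probes, and the fatty acid median was 0.30 with the mean of all probes.

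The limma fit called 0 genes in the reported setting. For tissue it called 2082 genes and 6 members with median scaling, 2839 and 2 with spike-in scaling, 3123 and 10 with normexp, and 3855 and 13 on genes of all 4 arrays. For genotype it called 76, 1, 87 and 150 genes in that order of settings. Of the single-gene differences under the alternatives 890 moved by less than the software's error and 146 by more, and of 434 values whose reported size was past 2 software errors 1 changed sign, Fdft1 between the tumors, at -1.39 with the mean of all probes. Of the 890, 148 came from genes detected on all 4 arrays and 148 from the submitters' table. Both settings repeat the reported values of the members, exactly or nearly, and could move none. They add nothing to the counts of settings given for single-gene differences. No paired analysis was possible because each group holds 1 array, and the labels number these arrays across the groups with no number shared.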

Other observations

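Lists of genes that use or store lipids held further differences. Mogat2, which makes diacylglycerol from monoacylglycerol, had a scaled signal of 0.712 in Nrf2-/- tumor and 1.26 in Nrf2+/+ tumor, against 0.0755 in the Nrf2-/- non-tumor pool and 0.0457 in the Nrf2+/+ non-tumor pool. It was thus higher in both tumors, by 3.24 and 4.79 on the log2 scale. Mogat1, of the same family, was lower in Nrf2-/- mice, at -2.40 in tumors and -1.91 in non-tumor lung. Dgat2, which finishes triacylglycerol, differed by 0.77 and 0.81 between tumor and non-tumor lung. Plin2, a coat protein of lipid droplets, was higher in Nrf2-/- mice by 1.03 in tumors and 1.05 in non-tumor lung. Soat1, which esterifies cholesterol, was higher in tumors by 1.14 in Nrf2-/- mice and 1.76 in Nrf2+/+ mice.

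Ch25h, which makes 25-hydroxycholesterol, an oxysterol that holds back SREBP processing, had 10.7 in Nrf2-/- tumor and 5.13 in Nrf2+/+ tumor, against 5.65 in the Nrf2-/- non-tumor pool and 0.902 in the Nrf2+/+ non-tumor pool. Its lowest sample was the array on its own slide. Of 9 fatty acid oxidation genes 7 were above 0 in Nrf2-/- tumors and 6 in Nrf2+/+ tumors, and none reached 2-fold. These values come from single arrays and carry no test.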
